A study of Mus musculus with 15 samples.

Results

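Lungs of mice that had aspirated rod-like carbon nanotubes (rCNT), carbon particles in the shape of fibres, were compared with lungs of mice that had aspirated phosphate-buffered saline (PBS). The samples were chosen by their titles, which name an rCNT aspiration in 4 cases (replicates 1 to 4) and an aspiration of PBS as vehicle in 4 others (replicates 1 to 4), so the experiment holds 8 of the 15 samples of the series. The title of a ninth sample, numbered UT1, also names PBS aspiration, but its other fields call it untreated, and it was not taken as a member. All mice were female C57BL/6 animals, 7 to 8 weeks old, and the labels name no transgene, deletion or other treatment. Oropharyngeal aspiration means that liquid placed behind the tongue is breathed in. The exposed group received 10 µg of rCNT a day in 50 µl of PBS and the control group 50 µl of PBS, both for 4 days, and lung tissue was taken 24 h after the last dose. The other 7 samples, 3 with inhaled rCNT and 4 untreated (UT1 among them), entered the statistical model but only 1 comparison of levels, which is given near the end. RNA was measured on 2-colour oligonucleotide arrays, each sample in 1 channel. Exposed replicates 1 and 3 and PBS replicates 2 and 4 were labelled with the dye Cy5 and the other 4 with Cy3, so each group held both dyes equally, and all 8 lay on 1 slide. The groups did not share the rows of the slide equally. Exposed replicates 1, 2 and 4 and PBS replicate 3 lay in row 2, and the other 4 in row 1. Exposed and PBS samples with the same replicate number lay in the same column, replicates 1 to 4 in columns 1 to 4. Whether each sample came from 1 mouse or from a pool is not given in the labels, so the spread behind the p-values below is that of these samples and may be technical.

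Fibres that reach the small airways and alveoli are met by resident macrophages, which try to engulf them, and by the epithelium, which releases alarm signals when it is damaged. One such signal, interleukin 33, acts on lymphocytes that release the type 2 cytokines interleukin 4, 5 and 13. These draw in eosinophils, turn airway epithelium towards mucus secretion and drive macrophages into the so-called alternative activation, in large part through the transcription factor STAT6. Monocytes recruited from the blood and the division of cells in the tissue add to the picture in many forms of lung injury.

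Levels below are log2 intensities of a gene's probe after background correction and quantile normalisation, so 1 unit is a 2-fold difference. A change is the log2 fold change of exposed over PBS samples from a linear model with the dye as a term, given as ± its standard error with 4 samples a group. A single signed value beside a gene, with no sample named, is its change on this log2 scale. Rose and fell are used for genes with a limma adjusted p below 0.05 over all genes tested, and other genes are given by their values. Of 25255 genes or unnamed transcripts tested, 5212 rose (20.6%) and 6694 fell (26.5%), together 47.1%. Counts of list members that rose or fell are to be read against these shares. A 2-fold or larger rise was called for 725 (2.87%) and a 2-fold or larger fall for 235 (0.931%). With the scanner software's processed signal these were 1254 and 626, and with cyclic loess normalisation 6262 genes rose and 5730 fell. The changes were lopsided at the large end: 164 genes were at least 4-fold and 37 at least 8-fold higher, against 9 at least 4-fold lower and 1, Fabp1, at least 8-fold lower. Most of the other calls were small, since 9023 of the 11906 called genes changed by less than 1.5-fold, and the median change over all genes was -0.04. The 4 exposed samples did not overlap the 4 PBS samples for 42.5% of all genes.

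The 2 groups stood apart in every sample. On the first principal component of the 8 samples, which held 78% of the variance, the exposed samples lay between -42.4 and -32.6 and the PBS samples between 33.8 and 37.4. The second component, with 9.3%, split the Cy5 from the Cy3 samples in both groups. The median SD of a gene was 0.097 in the exposed and 0.108 in the PBS group. Defining genes of lung tissue were well above background in all 8 samples, among them the surfactant genes Sftpc and Sftpb, Scgb1a1 of club cells, Ager of alveolar type 1 cells, Foxj1 of ciliated cells and Cdh5 of endothelium. Of markers for tissue that can be carried along at dissection, Rag1 and Ptcra of thymus and Ucp1 of brown fat were not well above background in any of the 8. Alb of liver was so in 3 PBS samples and no exposed sample, and Dntt of thymus and Krt13 of oesophagus differed by -0.10 and 0.20 and did not pass. Cardiac muscle genes were present and differed between the groups, as described below. In whole lung, fewer cells of a type and less RNA per cell cannot be told apart, and this holds for every cell type gene below.

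**Figure D1:**
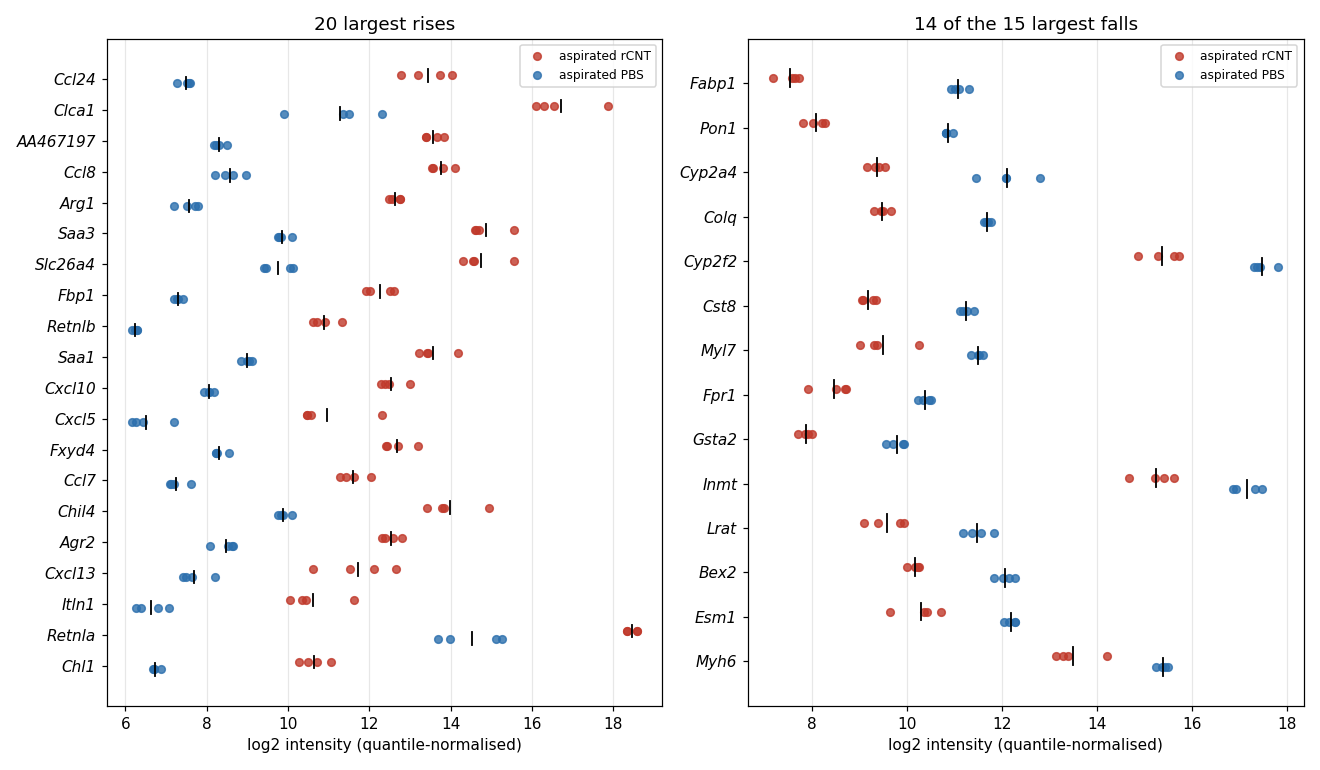
Levels in each sample of the genes with the 20 largest rises and of 14 of the 15 with the largest falls, as log2 quantile-normalised intensity on the horizontal axis. Points are single samples (4 aspirated rCNT in red, 4 aspirated PBS in blue) and black ticks are group means, and for none of the 34 genes does an exposed point reach the range of the PBS points.

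The largest rise was that of Ccl24 (eotaxin-2), a chemokine that draws eosinophils and that alternatively activated macrophages secrete. Its level was 13.75, 12.77, 13.21 and 14.03 in exposed replicates 1 to 4 and 7.27, 7.57, 7.52 and 7.59 in PBS replicates 1 to 4. Levels below follow the same order of replicates. The lowest exposed sample of Ccl24 lay more than 5 units above the highest PBS sample, and the change was 5.95 ± 0.19 (adjusted p = 2.37e-12, limma). Arg1, the arginase that alternatively activated macrophages use to turn arginine into ornithine, was at 12.77, 12.55, 12.48 and 12.75 in the exposed and 7.21, 7.53, 7.78 and 7.72 in the PBS samples. Its 4 exposed samples lay within 0.3 units of each other, and the rise was 5.08 ± 0.12. AA467197, a small protein of the mitochondria that is also called Nmes1, was at 13.66, 13.39, 13.40 and 13.84 in the exposed and 8.51, 8.30, 8.22 and 8.19 in the PBS samples, a rise of 5.27 ± 0.13. Fbp1, fructose bisphosphatase of gluconeogenesis, was at 12.51, 12.02, 11.92 and 12.61 in the exposed and 7.20, 7.29, 7.41 and 7.28 in the PBS samples. None of the other 31 tested genes of sugar breakdown and synthesis came near its rise of 4.97 ± 0.16, and the next was Hk3, a hexokinase of myeloid cells, at 1.69.

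Airway secretory genes formed the second block of lead genes. Clca1, a secreted protein of goblet cells, was at 16.31, 16.55, 16.09 and 17.86 in the exposed and 11.49, 9.91, 12.31 and 11.36 in the PBS samples, so the PBS samples themselves spread over more than 2 units and exposed replicate 4 stood more than 1 unit above the other exposed samples. The rise was 5.43 ± 0.42. Slc26a4 (pendrin), an exchanger of chloride and bicarbonate at the airway surface, was at 14.56, 14.55, 14.31 and 15.55 in the exposed and 9.46, 10.05, 9.42 and 10.13 in the PBS samples and rose by 4.98 ± 0.26. Retnlb, a resistin-like protein of mucous cells, was at 10.91, 10.62, 10.70 and 11.34 in the exposed samples and was not well above background in any PBS sample, so it was at least 25-fold higher (adjusted p = 4.14e-13, limma). Agr2, which helps mucins fold, rose by 4.05 ± 0.12, Itln1, a lectin that binds microbial sugars, by 3.98 ± 0.26, and Fxyd4, a regulator of the sodium pump, by 4.37 ± 0.14. The PBS level of Itln1 was well above background in 3 of 4 samples. Chl1, a cell adhesion molecule known from neurons, rose by 3.89 ± 0.13, and by 2.32 on another probe.

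Retnla, a secreted protein of alternatively activated macrophages and airway epithelium, was among the 2 brightest probes of every exposed sample. Its level was 18.35, 18.58, 18.35 and 18.58 in the exposed and 13.70, 15.12, 13.98 and 15.27 in the PBS samples. In the exposed samples its probe ranked 2, 1, 2 and 1 among the 34276 probes kept, against ranks of 1743, 651, 1455 and 570 in the PBS samples. Quantile normalisation gives all samples nearly the same set of spot values, so the rise of 3.95 ± 0.31 has a ceiling set by the brightest spots. Sftpc, the brightest probe in 2 exposed and 2 PBS samples, is limited in the same way, and its difference of -0.28 ± 0.13 did not pass (adjusted p = 0.0867, limma). It passed at -0.65 with cyclic loess and at -0.41 with median centring in place of quantile normalisation.

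Levels of the most changed genes differed among the 4 exposed samples. Exposed replicate 4 was the highest of the 4 for 16 of the 20 largest rises and the lowest for 11 of the 15 largest falls. Among the 725 genes at least 2-fold higher it was the highest for 393, against 58, 83 and 191 for replicates 1 to 3, and for 341 once the fitted dye effect was taken out. The lead of replicate 4 was wide for Cxcl5, at 10.58, 10.47, 10.47 and 12.32 in the exposed and 6.27, 6.43, 6.17 and 7.21 in the PBS samples, where PBS replicate 4 was likewise the highest of its group and the only one well above background. It was as clear for Muc5ac, the main mucin of goblet cells, at 10.94, 10.97, 10.58 and 12.25, for Chil4, a chitinase-like protein of the airways, at 13.78, 13.83, 13.41 and 14.94, and for Saa3, an acute phase protein, at 14.61, 14.63, 14.69 and 15.56. PBS replicate 4 was also the highest of its group for Saa3, at 10.10, but not for Muc5ac or Chil4. Both replicates 4 lay in the same column of the slide. Interferon response genes had another order once the dye effect was removed: replicate 3 was the highest for 21 of 27 and replicate 4 for 4. Without that step the counts were nearly the same, 13 for replicate 3 and 12 for replicate 4. Replicate 3 was also the lowest for 17 of the 25 endothelial genes that fell. These orders are descriptions of 4 samples, and no test was made on them. They were counted only in genes chosen by their change, not over all genes tested. Whether they reflect the strength of the response was not tested.

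**Figure D2:**
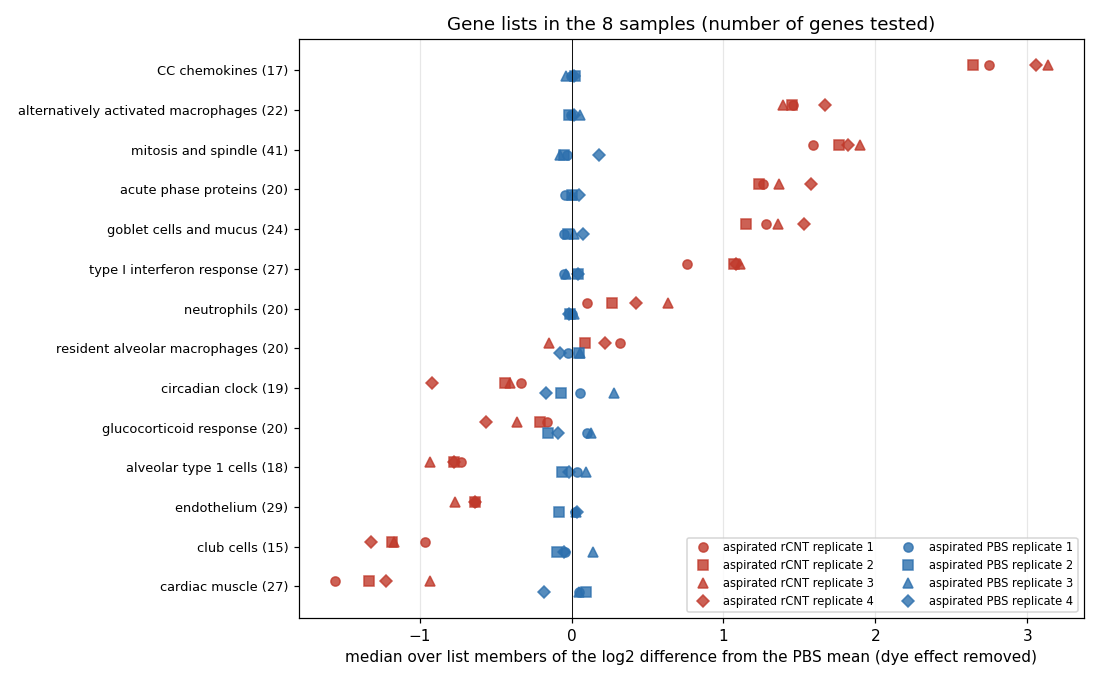
Median over the members of 14 gene lists of the log2 difference from the PBS mean, with the dye effect removed, for each of the 8 samples (red exposed, blue PBS, symbols for replicates 1 to 4). The circadian clock list lies at -0.92 in exposed replicate 4 and between -0.44 and -0.34 in the other 3, while for mitosis the 4 exposed samples lie together between 1.59 and 1.90.

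Chemokines, the small proteins that guide leukocytes, mostly rose. Of 17 CC chemokine genes tested 14 rose and 1 fell, with a median change of 2.90 against -0.04 for all genes. Ccl8 and Ccl7, which draw monocytes and eosinophils, rose by 5.19 ± 0.13 and 4.33 ± 0.14. Ccl2, the main monocyte chemokine, was at 12.27, 12.27, 12.96 and 12.64 in the exposed and 8.35, 8.68, 8.48 and 9.15 in the PBS samples and rose by 3.87 ± 0.14. Ccl5, which T cells and platelets release, was 0.01 higher and Ccl25, a chemokine of thymus and gut, was at -0.07, and neither passed. Ccl27a fell by 0.81, while another of its probes was at -0.03. The other chemokine families had 11 of 16 members up and 3 down, with a median of 1.02. Cxcl10, which draws activated T cells, was at 12.28, 12.40, 13.002 and 12.49 in the exposed and 7.95, 8.05, 8.19 and 8.07 in the PBS samples, a rise of 4.48 ± 0.12. Cxcl13, which draws B cells, was at 10.62, 11.53, 12.65 and 12.11 in the exposed and 7.48, 8.20, 7.63 and 7.42 in the PBS samples, and its 4 exposed samples spread over 2 units. Neutrophil chemokines rose as well. The rise of Cxcl1 was 3.01 ± 0.23. Cxcl3 and Cxcl2, dim in all PBS samples and not well above background there, were higher by at least 4-fold and 2.22-fold. Cx3cl1, made by endothelium, and Cxcl14, made by epithelium, fell by 0.73 and 0.87. Among 23 chemokine receptors 15 rose and 3 fell. Those that rose included Ccr3 of eosinophils (1.69), Ccr2 of monocytes (1.47) and Cxcr2 of neutrophils (1.07). The scavenging receptor genes Ackr4 and Ackr2 fell by 0.93 and 0.55.

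Promoters of the CXC chemokines are shown because the response to NF-kB, the transcription factor of acute inflammation, is read there. The 250 bases before the transcription start were taken from RefSeq (build GRCm38.p6), using the first start listed for a gene, and 12562 of the 15841 named genes tested had an entry. The letters GGGNNTTTCC, searched on both strands, were found in 1.4% of these 12562 promoters, in 3 of 13 of the CXC, C and CX3C chemokines and in 1 of 11 of the CC chemokines. Among the genes at least 2-fold higher 4.38% held it. The 4 chemokine promoters with a match are given as 80-base stretches in the direction of the gene, with each match in capitals. A match describes the letters and not a site in use.
Ccl9 (chr11:83578637-83578716, minus strand): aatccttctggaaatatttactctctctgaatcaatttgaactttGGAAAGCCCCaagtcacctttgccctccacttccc
Cxcl1 (chr5:90891139-90891218, plus strand): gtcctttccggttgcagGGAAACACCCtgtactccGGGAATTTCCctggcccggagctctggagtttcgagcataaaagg
Cxcl3 (chr5:90785993-90786072, plus strand): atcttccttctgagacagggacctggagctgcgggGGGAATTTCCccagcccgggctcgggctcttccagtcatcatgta
Cxcl2 (chr5:90903786-90903865, plus strand): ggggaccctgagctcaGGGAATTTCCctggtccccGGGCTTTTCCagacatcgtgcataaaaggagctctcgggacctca
Cxcl1 and Cxcl2 each held 2 matches, and Cxcl3 and Ccl9 1 each. Ccl9, a chemokine of macrophages, rose by 3.63 ± 0.09.

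Type 2 cytokines and their receptors changed in the same samples. Il33, the alarm signal of epithelium, was at 14.44, 14.12, 14.05 and 14.55 in the exposed and 11.73, 12.08, 11.89 and 12.34 in the PBS samples, a rise of 2.28 ± 0.15. Its receptor gene Il1rl1 rose by 1.58 ± 0.13, with another probe at 0.52. Il4 was at 9.24, 8.64, 8.72 and 9.19 in the exposed and 6.80, 6.57, 6.82 and 6.63 in the PBS samples and rose by 2.24 ± 0.12. Il13 was well above background in all exposed and no PBS samples and was at least 4.9-fold higher (adjusted p = 2.97e-08, limma). Il5, the eosinophil growth factor, rose by 1.02 ± 0.10, although 3 of 4 PBS samples were near background. In the list of type 2 cytokines and receptors 12 of 18 rose and 3 fell. Those that fell were Tslp, another epithelial alarm signal, at -0.40, Gata3, a factor of type 2 lymphocytes, at -0.29, and Stat6 itself at -0.28. Other probes of Stat6 were at -0.10 and -0.19, and its call was lost with median centring (limma adjusted p = 0.109). The call of Gata3 was lost on leaving out any of 9 single samples, with a limma adjusted p of up to 0.116. For Il13ra2, the decoy receptor of interleukin 13, the change was 0.14 ± 0.10 and for Il13ra1 0.13 ± 0.10, and neither passed (limma adjusted p = 0.294 and 0.311).

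Alternatively activated macrophage genes rose in 20 of 22 cases, with a median of 1.47. Beside Ccl24, Arg1, Chil4 and Retnla, Ccl17, a chemokine for type 2 T cells, was at 13.74, 13.32, 13.02 and 13.74 in the exposed and 9.91, 9.94, 9.75 and 9.98 in the PBS samples and rose by 3.56 ± 0.15. Pdcd1lg2, the ligand PD-L2 of the receptor PD-1, rose by 2.57 ± 0.13, Egr2 by 2.20 ± 0.13 and the mannose receptor gene Mrc1 by 1.09 ± 0.09. Klf4 alone fell, at -0.56, a call lost on leaving out any of 7 single samples, with a limma adjusted p of up to 0.0964. Socs2 did not pass. The letters TTCNNNNGAA, to which STAT6 can bind, were found on either strand in 3 of 14 promoters of this list with an entry, against 4.61% of all promoters and 3 of 20 of the type I interferon response. The 3 promoters with the STAT6 letters belong to Retnla, Ccl17 and Pdcd1lg2.
Retnla (chr16:48842429-48842508, plus strand): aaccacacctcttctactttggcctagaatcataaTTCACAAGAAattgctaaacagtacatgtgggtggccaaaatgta
Ccl17 (chr8:94810264-94810343, plus strand): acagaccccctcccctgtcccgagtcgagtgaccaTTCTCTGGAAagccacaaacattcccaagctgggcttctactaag
Pdcd1lg2 (chr19:29410802-29410881, plus strand): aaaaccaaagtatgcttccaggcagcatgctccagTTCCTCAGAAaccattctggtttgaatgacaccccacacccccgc
Classically activated macrophage genes rose too, 11 of 16, with 1 fall. Acod1, which makes itaconate, rose by 3.29 ± 0.22 and Il6, well above background in 1 of the 4 PBS samples, by 2.88 ± 0.17, while Nos2, the inducible nitric oxide synthase that competes with arginase for arginine, was at 9.65, 9.36, 9.52 and 9.66 in the exposed and 8.87, 9.07, 8.98 and 9.18 in the PBS samples and rose by 0.52 ± 0.08. Il1b rose by 2.12 ± 0.21 and Tnf by 1.24 ± 0.08. Fpr2, a receptor for formyl peptides, fell by 1.12, and its relative Fpr1 was among the 15 largest falls, at 8.51, 8.69, 8.73 and 7.92 in the exposed and 10.33, 10.48, 10.51 and 10.23 in the PBS samples.

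Monocyte and macrophage genes rose in 16 of 20 cases and fell in the other 4. Ms4a7 rose by 2.50 ± 0.12, the complement subunit gene C1qb by 2.20 ± 0.08, and Adgre1, which encodes the macrophage marker F4/80, by 1.29 ± 0.07. The lysozyme genes Lyz1 and Lyz2 fell, by 0.67 and 0.59, as did Mertk, a receptor for dying cells, at -0.58. Genes of resident alveolar macrophages were divided, with 8 of 20 up and 8 down and a median of 0.12. Itgax rose by 1.48 ± 0.10 and Cd200r1 by 1.34 ± 0.07. Cidec, a lipid droplet protein, fell by 1.84, from 10.42, 10.85, 10.70 and 10.49 in PBS to 8.69, 8.91, 8.99 and 8.51 in exposed samples, and Il18 fell by 1.38. Marco, a scavenger receptor that binds particles, was at 11.06, 12.10, 11.94 and 10.70 in the exposed and 11.99, 12.36, 12.53 and 11.84 in the PBS samples, and its change of -0.73 ± 0.26 passed with the 2 groups overlapping (adjusted p = 0.0273, limma). The call was lost on leaving out any of 4 single samples, with a limma adjusted p of up to 0.113. Siglecf, shared by alveolar macrophages and eosinophils, was 0.14 higher and did not pass.

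Genes of macrophages laden with lipid or fused into giant cells rose in part. Spp1 (osteopontin) was at 12.23, 12.20, 12.54 and 11.999 in the exposed and 9.47, 9.06, 9.19 and 9.44 in the PBS samples, a rise of 2.95 ± 0.16. Trem2, a lipid receptor, rose by 2.65 ± 0.13, Lgals3 (galectin-3) by 1.72 ± 0.10 and Gpnmb by 1.64 ± 0.17. In all 13 of 22 members of the lipid list rose and 4 fell, with the scavenger receptor Cd36 at -0.63 and the cholesterol exporter Abcg1 at -0.51 among those that fell. The fusion receptor genes Ocstamp and Dcstamp rose by 2.91 ± 0.13 and 2.73 ± 0.12, and Ctsk, the collagen-degrading protease of osteoclasts, by 2.37 ± 0.08. Of 17 members of that list 10 rose and 2 fell. Nfatc1, a main factor of osteoclast formation, fell by 0.36. Lysosomal hydrolases rose in 25 of 38 cases and fell in 4, led by Ctsk and Ctss (1.56). The proton pump that acidifies lysosomes had 9 of 23 subunits up, 2 down and 12 that did not pass. That pump had 47.8% called, close to the 47.1% of all genes. Its largest rise was Atp6v0d2, a macrophage subunit, at 1.03, with another probe at 0.28.

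In the receptor families of myeloid cells more genes rose than fell, by a wide margin in some families and by little in others. Of 17 C-type lectin receptors 12 rose and none fell, with Cd209d at 1.91 and the receptors for fungal and mycobacterial sugars Clec4d, Clec4e and Clec4n at 1.68, 1.52 and 1.47. Of 10 Fc receptor genes 7 rose and 1 fell. Fcgr2b, the inhibitory IgG receptor, rose by 2.13 ± 0.07, more than the activating receptor genes Fcgr3 (1.75) and Fcgr1 (1.54), though the difference between them was not tested. In the Cd300 and Siglec families 7 of 15 rose, led by Cd300lf at 1.79, whose other probes were at 1.73 and 0.33. Another 2 fell, and the median was 0.18. The scavenger receptors had 8 of 15 up and 3 down, with a median of 0.16. In the Ms4a family 4 of 12 rose and 3 fell, with a median of 0.11. Of 20 Toll-like and related receptors 12 rose, with a median of 0.35. Zbp1, a sensor of Z-form nucleic acid, rose by 2.08 ± 0.14, the endotoxin coreceptor gene Cd14 by 1.54 ± 0.09 and Sting1 by 1.42 ± 0.07, while Tlr5 and Tlr12 fell by 0.38 and 0.48.

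Eosinophil genes rose in 10 of 13 cases and none fell, with a median of 1.52. Cebpe, a factor of granulocyte granules, was at 11.66, 11.13, 11.09 and 11.57 in the exposed and 7.98, 7.61, 7.98 and 7.66 in the PBS samples and rose by 3.55 ± 0.14. Prg2, the major basic protein of the granule, was at 9.53, 9.11, 9.32 and 9.73 in the exposed and 6.39, 6.57, 6.28 and 6.49 in the PBS samples, and 1 of the 4 PBS samples was well above background. Alox15 rose by 2.68 ± 0.15 and Gata1 by 1.60 ± 0.15. Epx, the peroxidase that defines the eosinophil granule, was not well above background in any of the 8 samples, and Siglecf, Ear1 and Ear2 did not pass. The neutrophil list was mixed: 10 of 20 rose and 3 fell. Ltf (lactoferrin) rose by 2.22 ± 0.12, Cd177 by 1.99 ± 0.12, Retnlg by 1.94 ± 0.17 and Lcn2 by 1.90 ± 0.12, the last of which epithelium makes too. The calprotectin gene S100a8 was at 11.98, 12.39, 13.12 and 12.89 in the exposed and 11.98, 12.09, 11.75 and 12.51 in the PBS samples, its groups overlapped and its difference of 0.51 did not pass, but with the row of the slide as a term it was 0.80 and passed. S100a9 differed by 0.24 and did not pass either. The neutrophil growth factor gene Csf3 was too dim to be tested. Of 8 mast cell and basophil genes tested 2 rose and 2 fell, with Hdc, which makes histamine, at 0.82 and Gata2 at -1.06.

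Lymphocyte genes depended on the kind. The shares called were 28.6% for T cells, 22.2% for B cells and 25% for NK cells, below the 47.1% of all genes. Of 21 T cell genes 4 rose and 2 fell, and Cd3e was 0.21 and Cd4 0.05 higher without passing. In contrast, 19 of 23 genes of activated, regulatory and type 2 T cells rose, and the median was 0.81. Il2ra rose by 1.44 ± 0.10, Icos by 1.27 ± 0.09, Pdcd1 (PD-1) by 1.24 ± 0.07, and Foxp3, the factor of regulatory T cells, by 0.81 ± 0.09. Ifng was at 7.003, 7.34, 7.29 and 7.47 in the exposed and 7.03, 6.82, 6.97 and 6.90 in the PBS samples, a change of 0.35 ± 0.13 that passed with exposed replicate 1 below the highest PBS sample (adjusted p = 0.0415, limma). It was lost on leaving out any of 7 single samples, with a limma adjusted p of up to 0.112. Of 18 B cell genes 2 rose and 2 fell, and the B cell marker Ms4a1 was at 0.02 and did not pass. NK cell genes had 2 of 16 up and 2 down, with Xcl1, a chemokine of NK cells, up by 0.61 ± 0.11. Among 19 dendritic cell genes 11 rose and 1 fell, led by Pdcd1lg2 and by Batf3 at 2.18.

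All 27 tested genes of the type I interferon response rose, with a median of 0.92. Isg15, a ubiquitin-like modifier, was at 13.65, 14.07, 14.31 and 14.40 in the exposed and 11.71, 11.90, 11.62 and 11.98 in the PBS samples and rose by 2.31 ± 0.14. Oas1a, a sensor of double-stranded RNA, was at 13.40, 13.97, 13.86 and 13.96 in the exposed and 11.48, 11.59, 11.48 and 11.44 in the PBS samples and rose by 2.30 ± 0.11. Rsad2 (viperin) rose by 2.18 ± 0.14 and Irf7, the factor that amplifies the response, by 2.14 ± 0.13. In exposed replicate 1 the list stood lower than in the other 3: its median over the list was 0.76 above the PBS mean, against 1.07 to 1.11. Of 17 interferon-induced GTPases 13 rose, none fell and the median was 0.38, with Irgm1 at 0.86 and Igtp at 0.80. Genes of the interferons and their receptors moved little: Ifngr2 rose by 0.54, Ifngr1 fell by 0.37 and Ifnar1 was at -0.01 and did not pass. The interferon letters GAAANNGAAA were found on either strand in 2.79% of all 12562 promoters, in 9 of 20 of the type I interferon response and in 9 of 10 of the GTPases. The promoters of the 4 genes with a match and the largest rises are shown.
Isg15 (chr4:156200840-156200919, minus strand): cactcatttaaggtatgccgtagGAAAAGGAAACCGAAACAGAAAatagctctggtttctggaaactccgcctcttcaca
Oas1a (chr5:120907526-120907605, minus strand): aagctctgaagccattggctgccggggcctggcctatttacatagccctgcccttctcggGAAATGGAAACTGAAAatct
Rsad2 (chr12:26456528-26456607, minus strand): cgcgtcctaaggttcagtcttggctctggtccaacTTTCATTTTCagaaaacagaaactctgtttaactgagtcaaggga
Ifit1 (chr19:34640769-34640848, plus strand): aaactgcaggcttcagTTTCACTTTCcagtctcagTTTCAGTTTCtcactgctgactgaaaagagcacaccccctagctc
The matches of Isg15 overlap each other, and so do those of Oas1a, which end 4 bases before the start site. Ifit1 holds 2 separate matches on the opposite strand and rose by 1.77 ± 0.10. The letters TTTGAA can overlap the end of an interferon match, which they did in 5 promoters.

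**Figure D3:**
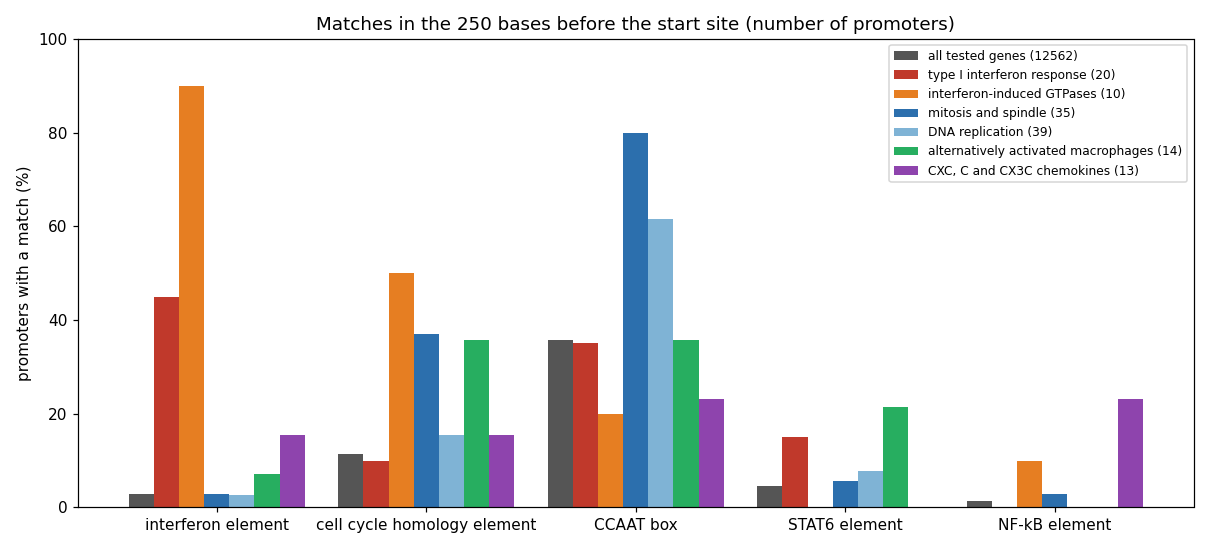
Share of promoters (percent, from 0 to 100) that hold each of 5 letter patterns on either strand in the 250 bases before the start site, for all tested genes with an entry and for 6 gene lists, with the number of promoters in parentheses. The interferon element is in 2.79% of all promoters and in 90% of those of the interferon-induced GTPases, and the CCAAT box in 35.8% of all and in 80% of those of the mitosis list.

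Most genes of antigen presentation rose. Of 25 genes of MHC class I and peptide loading 19 rose and 1 fell, with a median of 0.34, and Psmb8 of the immunoproteasome and the peptide transporter gene Tap1 led with 0.84 and 0.83. Of 15 class II genes 11 rose and 1 fell, with a median of 0.69. Ifi30, a thiol reductase of the lysosome, rose by 1.47 ± 0.10, H2-Ab1 by 0.83 ± 0.11 and the master regulator gene Ciita by 0.77 ± 0.13.

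Complement and acute phase genes mostly rose. Of 26 complement genes 16 rose and 3 fell. C3, the central component, was at 17.02, 17.52, 16.85 and 18.12 in the exposed and 15.06, 15.68, 15.14 and 15.60 in the PBS samples and rose by 2.01 ± 0.21, Cfb rose by 2.09 ± 0.08, and Cfi, which inactivates C3b, by 2.21 ± 0.10. Cfd (adipsin), which cleaves factor B and which fat cells make, fell by 1.03. Of 20 acute phase genes 16 rose and 1 fell, with a median of 1.41. Saa1 was at 13.45, 13.22, 13.41 and 14.18 in the exposed and 8.99, 9.05, 8.84 and 9.13 in the PBS samples, a rise of 4.57 ± 0.17, and Saa2 and Saa4, with no PBS sample well above background, were higher by at least 5.94-fold and 2.91-fold. Orm1 and Orm2 rose by 1.51 and 1.52, both well above background in 2 of 4 PBS samples, while Orm3 fell by 0.18, a call lost on leaving out any of 4 single samples, with a limma adjusted p of up to 0.111. In IL-6 signalling Il6 rose, its feedback inhibitor Socs3 rose by 1.06 ± 0.13, and the receptor genes Il6ra and Lifr fell by 0.49 and 0.83, with other probes of Lifr at -0.14 and -0.53. Of 24 genes of the TNF family and NF-kB feedback 18 rose and 3 fell, with Bcl3 at 1.49, Nfkbie at 1.22 and Tnfaip3, which ends NF-kB signals, at 1.15. Eicosanoid genes had 14 of 25 up and 5 down, with Pla2g7 at 1.89, while Hpgd, which breaks prostaglandins down, fell by 1.16.

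**Figure D4:**
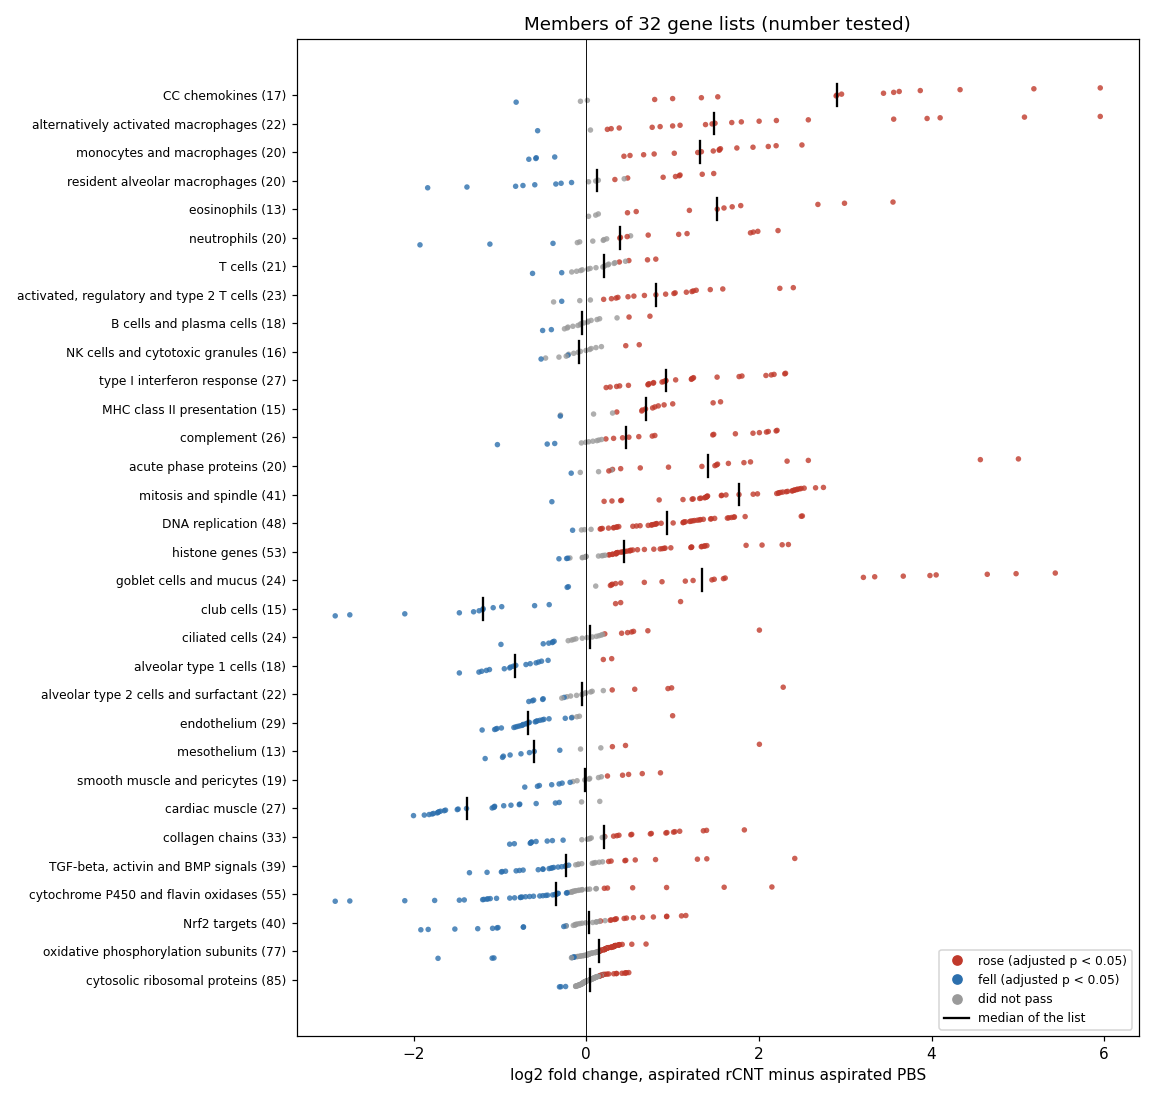
Log2 fold change (aspirated rCNT minus aspirated PBS) of each tested member of 32 gene lists, with the number of members in parentheses. Red points rose and blue points fell at a limma adjusted p below 0.05, grey points did not pass, black ticks are list medians, and fitted values are drawn for genes that were not above background in PBS samples. The CC chemokine, eosinophil and mitosis lists lie mostly to the right, the club cell, alveolar type 1, endothelial and cardiac lists to the left.

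Airway epithelium changed by cell type. Of 24 goblet cell and mucus genes 21 rose and 2 fell, with a median of 1.35. Muc5ac was at 10.94, 10.97, 10.58 and 12.25 in the exposed and 7.47, 7.34, 7.76 and 7.47 in the PBS samples, a rise of 3.67 ± 0.23, and Muc5b, the other gel-forming airway mucin, at 15.27, 15.56, 15.08 and 15.73 in the exposed and 13.72, 13.54, 14.08 and 13.94 in the PBS samples, a rise of 1.59 ± 0.12. Tff1, a trefoil peptide, was higher by at least 8.87-fold, with no PBS sample well above background, and Fcgbp, which binds mucins, rose by 3.21 ± 0.22. Spdef and Foxa3, factors of goblet cell differentiation, were higher too, Spdef by 1.46 ± 0.12 and Foxa3 at least 1.59-fold. Club cell genes went the other way: 12 of 15 fell and 3 rose, with a median of -1.20. Cyp2f2, the oxidase that defines club cells, was at 15.61, 15.28, 15.74 and 14.86 in the exposed and 17.43, 17.36, 17.81 and 17.29 in the PBS samples, and fell by 2.10. Scgb1a1 (uteroglobin), their main secreted protein, was at 17.58, 16.69, 17.72 and 16.77 in the exposed and 18.17, 18.16, 18.23 and 18.13 in the PBS samples and fell by 0.98, and its lowest samples were the Cy3-labelled exposed replicates 2 and 4. Cyp2a4 fell by 2.74, from 12.08, 12.08, 12.80 and 11.46 in PBS to 9.17, 9.55, 9.33 and 9.41 in exposed samples, and Gsto1, a glutathione transferase, rose by 1.09 ± 0.08. Among secreted defence proteins 13 of 22 rose and 5 fell. Dmbt1 rose by 3.19 ± 0.16, the chitinase gene Chia1 by 2.52 ± 0.20 and Reg3g, a lectin that kills bacteria, by 2.42 ± 0.27. Bpifa1, a surface-active protein of the upper airway, fell by 1.41.

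Ciliated cell genes showed no common direction, with 7 of 24 up, 6 down and a median of 0.04. The share called, 54.2%, was near the 47.1% of all genes. Foxj1, their defining factor, was at 11.58, 11.996, 11.89 and 11.96 in the exposed and 11.22, 11.16, 11.21 and 10.98 in the PBS samples and rose by 0.71 ± 0.07, and Ccno, needed for making many centrioles, rose by 2.01 ± 0.12. Tppp3 fell by 0.99, and the dynein gene Dnah11 by 0.44. Of 17 basal cell and repair keratin genes 9 rose and 1 fell. Sprr1a, a cornified envelope protein, rose by 1.74 ± 0.19 and the EGF receptor ligand gene Areg (amphiregulin) by 1.12 ± 0.17, while the basal cell genes Krt5 and Krt14 were at 0.21 and -0.03 and did not pass, and Trp63 fell by 0.24. That last call was lost on leaving out any of 5 single samples, with a limma adjusted p of up to 0.144, and the mean of its probes was 0.216 higher. Airway ion transport genes fell in 8 and rose in 5 of 22 cases. All 3 epithelial sodium channel subunits fell, Scnn1b by 0.79, Scnn1a by 0.47 and Scnn1g by 0.37, whereas Cftr, the chloride channel, was 0.08 higher and did not pass.

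Most alveolar type 1 and endothelial genes fell. Of 18 alveolar type 1 genes 16 fell and 2 rose, with a median of -0.83. Akap5 fell by 1.24, Hopx by 1.12 and Ager by 0.70, from 14.39, 14.25, 14.51 and 14.29 in PBS to 13.71, 13.69, 13.51 and 13.75 in exposed samples. Pdpn (podoplanin), which macrophages and lymphatics also make, rose by 0.29 ± 0.06. The alveolar type 2 list was divided, with 5 of 22 up, 6 down and a median of -0.05. The share called, 50%, was near the 47.1% of all genes. Sftpd, the collectin of surfactant, rose by 0.99 ± 0.15, whereas Sftpb fell by 0.50 and the lipid transporter gene Abca3 fell by 0.51. Endothelial genes fell in 25 of 29 cases, with a median of -0.67. Tmem100 fell by 1.21, Ednrb by 1.06 and Tek, the angiopoietin receptor gene, by 1.04. Kdr, the main receptor of VEGF, fell by 1.05, but another of its probes was at -0.22. Ackr1, a chemokine-binding protein of venules, alone rose, and was at 7.33, 7.35, 7.41 and 7.71 in the exposed and 6.37, 6.42, 6.45 and 6.54 in the PBS samples, with 2 of the PBS samples well above background. From the adhesion list, the rolling receptor gene Selp (P-selectin) rose by 1.04 ± 0.07. Vegfa fell by 0.82. Esm1 (endocan) was among the 15 largest falls, at 10.73, 10.42, 10.37 and 9.65 in the exposed and 12.15, 12.27, 12.27 and 12.05 in the PBS samples. Of 13 mesothelial genes 8 fell and 3 rose, with Upk1b at -1.17 and Wt1 at -0.60. Smooth muscle and pericyte genes were divided, 5 of 19 up and 7 down, with Acta2 at 0.49 and Notch3 at -0.71.

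Cardiac muscle genes, which mouse lung also holds in the walls of its large veins, fell in 25 of 27 cases, with a median of -1.39. Myh6, the atrial myosin heavy chain, was at 13.28, 13.39, 14.21 and 13.13 in the exposed and 15.36, 15.44, 15.49 and 15.24 in the PBS samples, and Myl7, the atrial light chain, at 9.02, 9.32, 10.26 and 9.37 in the exposed and 11.52, 11.49, 11.61 and 11.36 in the PBS samples. Over the list the 4 exposed samples stood 1.56, 1.34, 0.93 and 1.22 below the PBS mean, the PBS samples lay between -0.183 and 0.096, and the groups did not overlap. Actc1 fell by 0.31 only, a call lost on leaving out any of 5 single samples, with a limma adjusted p of up to 0.126, and Myl2 was 0.16 higher and did not pass. Red cell genes fell as well, with Hbb-b1 at -1.34 and Alas2 at -1.28, and 11 of 15 genes of red cells and platelets fell while Pf4 rose by 0.67 ± 0.11. How much cardiac tissue or blood a sample held, and its part in the falls of endothelial or other genes, was not tested. Genes often taken as constant were not: Actb rose by 0.82 ± 0.11 and Gapdh by 0.71 ± 0.07.

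Matrix genes changed by type. Of 33 collagen chains tested 16 rose and 10 fell, with a median of 0.21. Among the chains of fibrils Col3a1 rose by 1.39 ± 0.10, Col1a1, at 15.11, 15.20, 15.22 and 15.33 in the exposed and 13.80, 13.92, 13.99 and 13.72 in the PBS samples, by 1.36 ± 0.08, Col1a2 by 0.93 ± 0.06 and Col5a1 by 0.92 ± 0.09. Of the 6 chains of basement membrane collagen IV 4 fell, Col4a3 by 0.89, Col4a4 by 0.65, Col4a5 by 0.64 and Col4a6 by 0.64 (another probe at -0.12), while Col4a1 and Col4a2 were at 0.21 and 0.01 and did not pass. Col22a1 was uneven, at 7.97, 8.86, 9.20 and 6.78 in the exposed and 6.45, 6.44, 6.21 and 6.37 in the PBS samples, and 2 of the PBS samples were well above background. Eln (elastin) rose by 1.02 ± 0.23 and the crosslinking enzyme gene Lox by 0.90 ± 0.13, whereas Fbln5 and Ltbp4, which organise elastic fibres, fell by 0.62 and 1.16. A second, dimmer probe of Fbln5 was at 0.04. Tnc (tenascin C) rose by 1.37 ± 0.12 and Thbs1 by 1.49 ± 0.16, while Tnxb (tenascin X) fell by 1.30. Postn (periostin), often high in allergic airways, was at -0.13 and did not pass. Thbs4 was at 8.10, 10.000, 9.75 and 7.91 in the exposed and 6.32, 6.25, 6.50 and 6.23 in the PBS samples, so exposed replicates 2 and 3 stood well above replicates 1 and 4.

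Proteases and their inhibitors rose in 19 of 32 cases and fell in 7. Timp1, an inhibitor of metalloproteinases, was at 14.52, 14.20, 14.49 and 14.63 in the exposed and 10.87, 11.38, 11.23 and 11.52 in the PBS samples and rose by 3.21 ± 0.12, while Timp3 fell by 1.03. Timp2 fell by 0.65, while its other probe was at 0.20. Mmp12, the elastase of macrophages, was higher by at least 8.55-fold, with no PBS sample well above background, with another probe at 0.77. For Mmp9 the change was 0.20, which did not pass (adjusted p = 0.192, limma). Of 39 genes of TGF-beta, activin and bone morphogenetic protein signalling 9 rose and 20 fell, with a median of -0.23. Inhba, the activin A subunit, was at 9.97, 10.09, 10.39 and 10.28 in the exposed and 7.72, 7.78, 7.78 and 7.77 in the PBS samples and rose by 2.42 ± 0.09, its antagonist gene Fst (follistatin) by 1.29 ± 0.16, Gdf15 by 1.40 ± 0.12, Grem1, an antagonist of bone morphogenetic proteins, by 0.80 ± 0.11, and Tgfb1 by 0.45 ± 0.08. On the side of the bone morphogenetic proteins, the ligand gene Bmp6 fell by 1.35, the receptor genes Bmpr2 and Acvrl1 by 0.77 and 0.98, and the target genes Smad6 and Id1 by 0.98 and 0.50. Several of these, Acvrl1 included, are genes of endothelium.

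Genes of cell division rose nearly without exception. In the mitosis list 40 of 41 rose, 35 of them at least 2-fold, and the median was 1.77. Birc5 (survivin) was at 12.77, 12.99, 13.02 and 13.05 in the exposed and 10.26, 10.20, 9.96 and 10.42 in the PBS samples and rose by 2.75 ± 0.11. Mki67, the Ki-67 antigen, was at 12.44, 12.58, 12.51 and 12.63 in the exposed and 9.93, 9.91, 9.97 and 10.25 in the PBS samples and rose by 2.52 ± 0.10. Pttg1 (securin) alone fell, by 0.40. Cdk1 rose by 2.49 ± 0.10 on the probe used, with 2 others at 0.95 and -0.04. Of 48 DNA replication genes 44 rose and 1 fell, with a median of 0.94. Rrm2, of ribonucleotide reductase, rose by 2.50 ± 0.07, Uhrf1 by 2.49 ± 0.12 (another probe at 0.50) and Tk1 (thymidine kinase) by 1.84 ± 0.10, and Ccnd1 (cyclin D1) was 0.06 higher and did not pass. Gins3 was the 1 that fell, at -0.16, a call lost on leaving out any of 12 single samples, with a limma adjusted p of up to 0.144. Of 53 histone genes 39 rose and 3 fell, with a median of 0.44. H1f5 rose by 2.34 ± 0.14 and H2ac4 by 2.27 ± 0.13, H2bc21 fell by 0.32, and since histone genes are close copies their probes may not tell them apart. The cell cycle homology letters TTTGAA, which repressor complexes of resting cells bind, were found on either strand in 13 of 35 mitosis promoters (37.1%) against 11.4% of all promoters, and in 15.4% of DNA replication promoters. Other lists held them too: 5 of 10 promoters of the interferon-induced GTPases, 4 of 11 of the CC chemokines and 5 of 14 of the alternatively activated macrophage genes. The CCAAT box was in 28 of the 35 (80%) against 35.8% of all, and in 14 of 19 of the MHC class I genes. The promoters of the 4 genes with a TTTGAA match and the largest rises follow, with that match in capitals.
Cdc20 (chr4:118437344-118437423, minus strand): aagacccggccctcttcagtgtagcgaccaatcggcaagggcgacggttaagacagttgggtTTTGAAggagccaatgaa
Mki67 (chr7:135716435-135716514, minus strand): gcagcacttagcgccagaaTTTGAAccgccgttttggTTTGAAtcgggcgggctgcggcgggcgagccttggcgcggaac
Cdk1 (chr10:69352913-69352992, minus strand): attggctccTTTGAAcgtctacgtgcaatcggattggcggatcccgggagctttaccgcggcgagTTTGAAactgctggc
Ube2c (chr2:164769849-164769928, plus strand): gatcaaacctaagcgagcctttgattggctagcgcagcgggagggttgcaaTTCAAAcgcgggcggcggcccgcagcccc
CCAAT or its complement ATTGG also stands in the stretches of Cdc20, Cdk1 and Ube2c, in lower case. Cdc20 rose by 2.66 ± 0.07 and Ube2c by 2.38 ± 0.10.

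The p53 list, whose members halt division or repair DNA, had 12 of 29 up and 5 down. Cdkn1a (p21) was at 11.16, 11.40, 11.60 and 10.97 in the exposed and 10.04, 10.05, 9.75 and 10.34 in the PBS samples and rose by 1.24 ± 0.21, Gadd45g rose by 1.31 ± 0.11, while Mdm2 was 0.13 higher and did not pass, and Sesn1 and Xpc fell by 0.67 and 0.73. Of 13 genes of EGF receptor signalling 4 rose and 4 fell.

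Metabolic genes were among the largest falls. Fabp1, a fatty acid binding protein of liver and gut, was at 7.58, 7.73, 7.64 and 7.19 in the exposed and 11.01, 11.31, 11.09 and 10.92 in the PBS samples, and fell by 3.55. Pon1 (paraoxonase) was at 8.02, 8.21, 8.27 and 7.80 in the exposed and 10.82, 10.96, 10.82 and 10.83 in the PBS samples and fell by 2.78, whereas its relatives Pon2 and Pon3 were at -0.14 and -0.11 and did not pass. Fabp5, of macrophages and epithelium, rose by 0.57 ± 0.11. Of 55 cytochrome P450 and flavin oxidase genes 33 fell and 6 rose, with a median of -0.35. Cyp26b1, which clears retinoic acid, was at 11.22, 12.68, 10.44 and 9.61 in the exposed and 13.52, 12.43, 12.22 and 12.82 in the PBS samples. It fell by 1.76, the groups overlapped, and it had one of the largest SDs in the exposed group. Lrat, which stores retinol, fell by 1.91. Also among the 15 largest falls, Colq, a collagen tail of acetylcholinesterase, fell by 2.21 (another probe at -1.01), the cystatin gene Cst8 fell by 2.05 and Bex2 fell by 1.90. Among those that rose were Cyp7b1, which acts on oxysterols, by 2.15 ± 0.11 and Cyp4f18, which acts on leukotriene B4, by 1.60 ± 0.13. Ch25h, which makes 25-hydroxycholesterol, rose by 2.43 ± 0.10, while 17 of 26 genes of cholesterol synthesis and uptake did not pass. Inmt, a methyltransferase abundant in lung, was at 15.63, 15.22, 15.41 and 14.68 in the exposed and 17.33, 16.86, 17.47 and 16.93 in the PBS samples and fell by 1.91.

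Targets of Nrf2, the factor of the oxidative stress response, did not move as one: 15 of 40 rose, 11 fell and the median was 0.03. Hmox1 (heme oxygenase) rose by 1.15 ± 0.08, Gclc, of glutathione synthesis, by 0.93 ± 0.11, and Slc7a11, the cystine importer, was higher by at least 1.79-fold, with no PBS sample well above background. Nqo1 was at 7.06, 6.88, 6.98 and 7.12 in the exposed and 7.38, 6.98, 7.20 and 7.01 in the PBS samples, and its difference of -0.13 did not pass (adjusted p = 0.234, limma). Among those that fell were enzymes known from club cells: Gsta2 fell by 1.92, Gsta3 by 1.83, Gstm1 by 1.52 and Ephx1 by 1.26. The metallothionein gene Mt2 rose by 1.96 ± 0.11 and the zinc importer gene Slc39a14 by 1.37 ± 0.13. In iron handling 14 of 25 genes rose and 2 fell, with Steap4 at 1.83, the lysosomal exporter gene Slc11a1 at 1.34 and Hamp (hepcidin) fallen by 0.85.

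In arginine metabolism 13 of 21 genes rose and 2 fell. After Arg1 came Gatm, which starts creatine synthesis, at 9.38, 9.40, 9.15 and 9.64 in the exposed and 7.03, 6.72, 6.92 and 6.71 in the PBS samples, a rise of 2.55 ± 0.07, the importer gene Slc7a2 with 1.16 ± 0.09 and Arg2 with 1.11 ± 0.12, and Odc1, which turns ornithine into polyamines, rose by 0.60 ± 0.06. Glycolysis genes rose in 15 of 32 cases and fell in 6, with Ldha at 0.70 and, among those that fell, the muscle enzyme gene Pgam2 at -1.14. Of 77 oxidative phosphorylation subunits 39 rose and 7 fell, and the median was 0.15. The 3 that fell at least 2-fold, Cox8b, Cox7a1 and Cox6a2, are the forms of heart and muscle. Of 85 ribosomal protein genes 63 did not pass and the median was 0.04.

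In the lists of stress and daily rhythm, 50% of heat shock and 52.6% of circadian genes were called, near the 47.1% of all genes. For endoplasmic reticulum stress the share was 60.6% and for the glucocorticoid response 75%. Of 33 endoplasmic reticulum stress genes 18 rose and 2 fell. Chaperone genes rose, Sdf2l1 by 1.58 ± 0.09 and Hspa5 (BiP) by 0.75 ± 0.15, while Ddit3 (CHOP) was at -0.12 and did not pass. Of 20 heat shock genes 5 rose, 5 fell and 10 did not pass. Glucocorticoid-induced genes fell in 9 and rose in 6 of 20 cases: Per1, Klf9 and Tsc22d3 (GILZ) fell by 0.96, 0.93 and 0.91, and Fkbp5 rose by 0.48 ± 0.13. Among 19 circadian genes 8 fell and 2 rose. Nfil3 rose by 1.60 ± 0.27 and Bhlhe40 by 1.08 ± 0.16. Tef fell by 1.11 and Nr1d1 (Rev-erb alpha) by 0.97, though the call of Nr1d1 was lost on leaving out any of 10 single samples, with a limma adjusted p of up to 0.161. Dbp, a clock output gene, was at 13.56, 13.86, 13.52 and 12.12 in the exposed and 14.88, 14.32, 15.37 and 13.05 in the PBS samples and did not pass (adjusted p = 0.285, limma). Replicate 4 was the lowest in both groups. With the replicate number as a block over the 8 samples, the change of Dbp was -1.139 and passed (adjusted p = 5.57e-05, limma). Same-numbered samples shared a column of the slide, so this block is also a block of slide column. Whether the numbers pair the animals as well could not be decided. Arntl, which peaks opposite to Dbp, was at 8.58, 8.42, 8.62 and 9.35 in the exposed and 8.35, 8.52, 7.85 and 9.75 in the PBS samples, highest in replicate 4 of both groups. The hour of sampling is not given in the sources used here, and its part in these values was not tested.

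Several of the changed genes lie side by side on their chromosomes. Named genes tested were put in the order of the RefSeq table (GRCm38.p6), and a run was called where 3 or more neighbours each changed at least 2-fold in the same direction. There were 15 runs of higher genes, with 54 of the 625 genes at least 2-fold higher that could be placed, and 2 runs of lower genes, with 6. The longest lay on chromosome 11 and held Ccl2, Ccl7, Ccl11, Ccl12, Ccl8 and Ccl1, whose rises were 3.87, 4.33, 3.44, 2.96 and 5.19, with Ccl1 at least 2.51-fold higher. A second run on chromosome 11 joined Ccl6, Ccl3 and Ccl4 with the protease inhibitor genes Wfdc17 and Wfdc18, at 2.92 and 1.05, the latter well above background in 1 PBS sample. On chromosome 12, 5 serine protease inhibitor genes from Serpina3f (2.38) to Serpina3n (2.33) rose, on chromosome 7 the 4 genes Saa3, Saa4, Saa1 and Saa2, and on chromosome 16 Retnlb, Retnla and Retnlg. Most runs thus held members of 1 family, which can share probe sequence, so part of a member's signal may come from its neighbour. Others joined unrelated genes: Igf1, a growth factor, was at 12.07, 11.83, 12.08 and 12.13 in the exposed and 8.88, 9.32, 8.77 and 8.96 in the PBS samples and rose by 3.05 ± 0.13, next to Tyms-ps (1.72) and Parpbp (1.12). Whether the probe of Tyms-ps, on which this run depends, reads that gene alone was not tested. One of the lower runs held Cyp2b9, Cyp2a4 and Cyp2f2 on chromosome 7, at -1.04, -2.74 and -2.10.

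**Figure D5:**
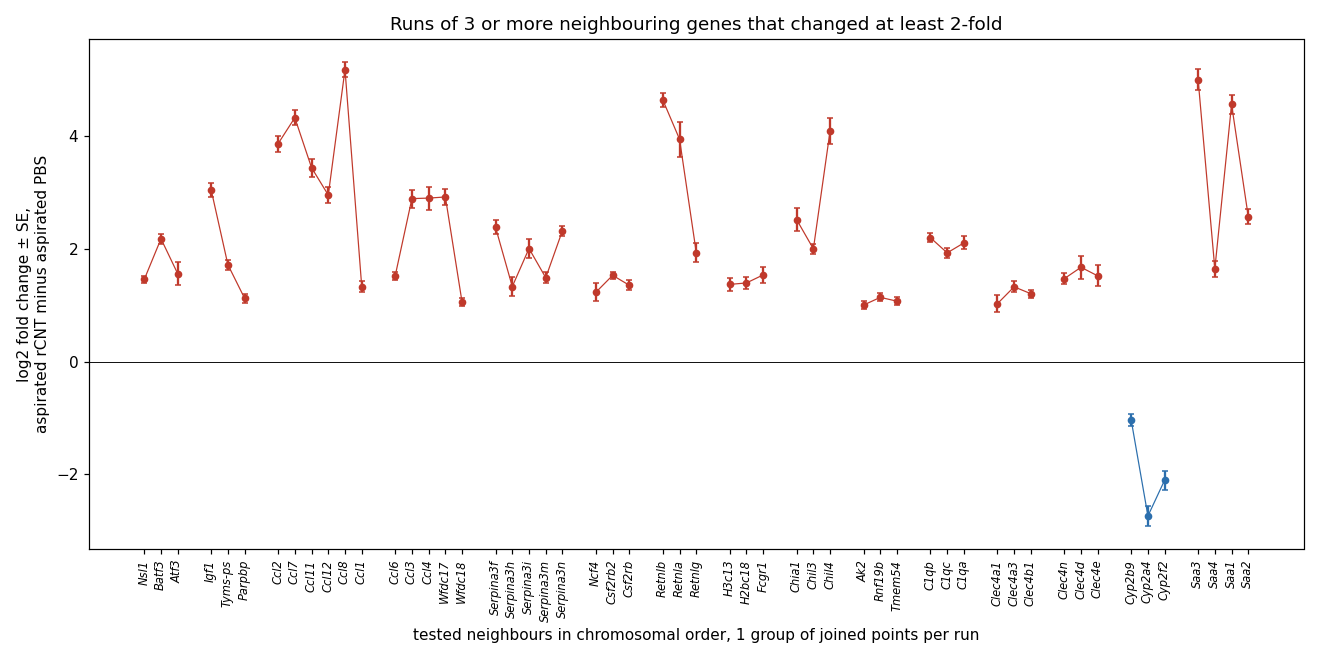
Log2 fold change ± standard error (aspirated rCNT minus aspirated PBS) of the 53 genes in 15 of the 17 runs, in chromosomal order, with the points of a run joined. Red runs are higher and blue runs lower, and fitted values are drawn for genes not above background in PBS samples. The tallest runs are those of the Ccl genes with Ccl8 and of the Saa genes with Saa3.

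The change after aspiration was set against that after inhalation (3 samples with inhaled rCNT minus 4 untreated) for 6 lead genes. A difference of the 2 changes passed for 57% of all genes tested. Ccl24 was at 5.95 after aspiration and 0.84 after inhalation, a difference of 5.11 ± 0.28 (adjusted p = 1.91e-09, limma). Arg1 was at 5.08 and -0.40, a difference of 5.47 ± 0.18 (adjusted p = 1.47e-11, limma). Fabp1 was at -3.55 and -2.40, a difference of -1.15 (adjusted p = 5.13e-05, limma). Clca1 was at 5.43 and 6.18, Saa3 at 5.01 and 4.39 and Retnla at 3.95 and 4.54, and these 3 differences did not pass (limma adjusted p = 0.318, 0.0753 and 0.28), which does not show that the changes were equal. Without UT1 the differences of Ccl24, Arg1 and Fabp1 were 5.03, 5.46 and -1.13 and passed. The 2 routes also lay on different slides and had different controls, so these cannot be told apart.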

How the data were processed

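RNA of lung tissue from 15 samples was hybridised to 2-colour Agilent arrays with 62976 spots, each sample in 1 channel, and the 8 samples of the aspiration experiment carry the report. The deposited intensities used are medians over the pixels of a spot and of the area around it, extracted with Agilent Feature Extraction 11.0.1.1 per the file headers, with no normalisation. The authors' table of log2 values of the same arrays, made with Feature Extraction and limma per the submitters' processing notes, with its centring unstated, served as an alternative. The array design refers to mouse build mm9.

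Each sample's own channel was corrected for background (normexp, offset 50), taken to log2 and quantile-normalised over the 15 channels (limma 3.58.1, R 4.3.3). Control spots and outlier flags were left out, and spots of 1 probe were averaged. A probe was kept if 3 or more samples of any group were well above background, which left 34276 of 55681. Of several probes of a gene the one brightest on average was used, and of 59 genes named here with several probes 22 had one whose change was more than 0.5 log2 units away or of opposite sign. No spot of the 8 samples was saturated. Of 29123 probes with a RefSeq accession 27656 matched the RefSeq gene table (GRCm38.p6, used for names and order), giving 20972 genes. The model held 4 groups and the dye over all 15 samples, which share 1 estimate of the spread, with Benjamini-Hochberg adjustment over 25255 features (15841 named). Where no PBS sample was well above background, a rise is a lower bound, set against the dim probe's own signal or, where that is lower, the dimmest signal that is well above background on the same array. The 8 samples had 58.1 to 62.7% of spots well above background, and the number of arrays limits the precision.

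The genes named are the 20 largest rises and 15 largest falls without overlap, the leading members of each list and the largest against its majority, 21 genes fixed by name, members of the neighbour runs and 6 genes compared between routes. Other list members were named after their values were seen, and some genes are not reported here. The samples and all 77 lists (1924 genes, some in several lists) were chosen with earlier results of these data known, and the histone list was amended for renamed symbols. The fit was tested on simulated data with 25237 genes, where it found 80% of genes raised by 0.5 log2 units, 94% of those lowered by 0.5 and 100% of those changed by 1 or 2, with 18 false among 205 calls. Only 50 genes were changed at each size, far fewer than were called in the real data. The noise was independent between samples, drawn from the fitted variances, with no dye or slide effect. Effects of that kind were thus not tested. Alternatives were other background corrections, normalisations, filters, covariates, variance models, array weights, the deposited log2 table and leaving out each sample.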

Additional observations from a re-analysis of the deposited data

Results flagged for a closer look

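For each of 329 named genes the 4 exposed and the 4 PBS levels (log2) were checked for a sample far from the other 3, where the gap to the nearest sample takes up most of the range of the group by the Dixon criterion. Of these 658 checks 28 picked out a sample, and chance alone picks out about 1 in 20. In exposed replicate 3, Clec4e at 10.26 (nearest other 9.07), Grem1 at 7.95 (nearest other 7.41), H1f5 at 11.08 (nearest other 10.504), H2ac4 at 14.03 (nearest other 13.72) and Wfdc18 at 7.6 (nearest other 7.403) lay above the rest of the group. In exposed replicate 4, Cxcl5 at 12.32 (nearest other 10.58), Lcn2 at 15.73 (nearest other 15.37), Saa3 at 15.55 (nearest other 14.69), Saa4 at 8.36 (nearest other 7.55) and Slc39a14 at 10.22 (nearest other 9.797) lay above the rest of the group. In exposed replicate 3, Alas2 at 9.81 (nearest other 10.41), Itgax at 13.09 (nearest other 13.43), Mrc1 at 11.85 (nearest other 12.17) and Tppp3 at 12.46 (nearest other 12.63) lay below the rest of the group. In exposed replicate 1, Ctsk at 13.81 (nearest other 13.67) and Siglecf at 11.05 (nearest other 10.48) lay above the rest of the group. In exposed replicate 4, Fkbp5 at 10.71 (nearest other 11.11) and Nr1d1 at 9.02 (nearest other 9.802) lay below the rest of the group. In exposed replicate 1, Ackr4 at 7.15 (nearest other 7.32) lay below the rest of the group. In PBS replicate 2, Fxyd4 at 8.55 (nearest other 8.24) and Pon1 at 10.96 (nearest other 10.83) lay above the rest of the group. In PBS replicate 2, Fabp5 at 14.62 (nearest other 14.91) and Kdr at 13.93 (nearest other 14.15) lay below the rest of the group. In PBS replicate 3, Bpifa1 at 14.23 (nearest other 13.604) and Gata1 at 7.62 (nearest other 7.22) lay above the rest of the group. In PBS replicate 1, Inhba at 7.72 (nearest other 7.77) lay below the rest of the group. In PBS replicate 4, Sdf2l1 at 9.2 (nearest other 8.98) lay above the rest of the group. In PBS replicate 4, Ear2 at 15.14 (nearest other 15.37) lay below the rest of the group.

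Changes after aspiration and after inhalation differed by limma's test of the difference for 3 of the 6 genes compared: Ccl24 by 5.11, Arg1 by 5.47 and Fabp1 by -1.15 on the log2 scale. Measured from each route's own control, the changes of Ccl24 and Arg1 were far higher after aspiration, and Fabp1 fell further. Of all genes tested, 57% had such a difference, and the 2 routes lay on different slides with different controls, which cannot be told apart.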

How the results depend on the processing

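The counts of 5212 higher and 6694 lower genes stayed within 1.5 times under every alternative run, with 4579 to 5372 higher and 5791 to 6941 lower when 1 sample was left out, and 688 to 734 at least 2-fold higher and 216 to 260 at least 2-fold lower. The software's processed signal gave 1254 genes at least 2-fold higher and 626 at least 2-fold lower. The share of higher genes among those called was 43.8% and reached 52.2% with cyclic loess and 50.2% with median centring. With the row of the slide as a term, 4991 genes were higher and 6214 lower, and 10649 of the 11906 calls remained. With the replicate number as a block over the 8 samples, 5511 genes were higher and 7284 lower, 11550 of the 11906 calls remained, and Dbp passed at -1.139 (limma adjusted p = 5.57e-05). Same-numbered samples always carried opposite dyes. Their deviations from the group means correlated at -0.15, -0.35, -0.43 and -0.07, and at 0.21, -0.04, -0.14 and 0.29 with the dye effect removed. With that effect removed, exposed replicates 1 and 4 matched the same-numbered PBS sample best, and replicates 2 and 3 did not. The numbers pair the samples by slide column, and these values do not decide whether they pair them in any other way.

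Among the differences between routes, that of Retnla was -1.386 and passed with cyclic loess, and that of Saa3 was 0.925 and passed with median centring. With 1 sample left out the Retnla difference ran from -1.166 to -0.34, passing without inhaled replicate 2, and the Saa3 difference from 0.371 to 0.783, passing without PBS replicate 4, exposed replicate 2 or inhaled replicate 3. Ccl24 ran from 4.839 to 5.347, Arg1 from 5.325 to 5.584, Fabp1 from -1.272 to -1.031 and Clca1 from -1.198 to -0.31. The change of Trp63 was 0.216 and passed when the probes of a gene were averaged. The calls of Stat6, Ifngr1, Nfatc1 and Id1 were lost with median centring alone. Other calls were lost or reversed both under changes of processing and on leaving out samples. Together these were 19 settings for Gins3, 17 for Nr1d1, 16 for Gata3 and 11 each for Klf4 and Trp63. For Ifng there were 10, for Actc1 9, for Orm3 8 and for Marco 6. Sftpc, S100a8, Dbp, Cd3e, Krt5, Mmp9, Ear2, Col4a1, Krt13 and Siglecf, given as not past the threshold, passed under at least 1 alternative. The cause of these shifts was not tested. Of 4312 recomputed list counts 269 moved by more than 1.5 times, over 51 of the list counts. The mean spot signal was planned as an alternative and is not analysed here. Genes near background, such as Il13 and Cxcl2, are measured on the exposed side only.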
